A study of Mus musculus with 22 samples.

Results

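Ighg1 and Ms4a1, 2 genes best known from B lymphocytes, were followed through RNA sequencing of fully grown mouse oocytes. Both were found by gene symbol among the 52636 genes of the count table. They were chosen because they were well counted in oocytes where most other B cell genes were low, and because Ighg1 was low in Dicer SOM/SOM oocytes of the single-end run. Values of both genes in that group are therefore given as a description, with no test.

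Each sample held 25 oocytes at the germinal vesicle (GV) stage, arrested in prophase of meiosis I, from mice of the labelled strain C57BL/6. In the single-end run there were 3 wild-type samples (Dicer-WT/WT), 1 Dicer ΔMT/WT sample, 4 Dicer ΔMT/ΔMT samples and 3 Dicer SOM/SOM samples, with no ages given in the labels. The ΔMT allele lacks the MTC retrotransposon promoter that drives the short, highly active Dicer of mouse oocytes, and the SOM allele encodes only HA-tagged full-length Dicer from a locus without introns 2 to 6. In the paired-end run every animal carried at least 1 SOM allele and at least 1 Mili DAH allele, a mutation of the catalytic site of the piRNA protein MILI. Its groups were 4 heterozygous controls (Dicer-SOM/WT with Mili-DAH/WT, aged 36, 38, 10 and 17 weeks), 2 RNAi mutants (Dicer-SOM/SOM with Mili-DAH/WT, aged 17 and 13 weeks), 1 piRNA mutant (Dicer-SOM/WT with Mili-DAH/DAH, aged 16 weeks) and 4 double mutants (Dicer-SOM/SOM with Mili-DAH/DAH, aged 40, 35, 11 and 11 weeks). The SOM line descends from 1 clone of engineered embryonic stem cells through a chimera and was crossed to C57BL/6. Differing ages mark most paired-end samples of a group as separate animals. The labels do not say this of the single-end samples, whose tests measure the spread between samples, which may be technical.

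Ighg1 encodes the constant region of the IgG1 heavy chain. In B cells the constant genes lie in a row behind the V, D and J segments, IgM is made first, and class switch recombination later joins the rearranged V region to a gamma, epsilon or alpha constant gene. Ms4a1 encodes CD20, a membrane protein of B cells with 4 membrane passes in a family of tandem genes.

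Ighg1 (ENSMUSG00000076614.7) lies on the minus strand of chromosome 12 at chr12:113325240-113330523 (GRCm38) and was counted over 6 exons of 2482 bases in all. No other gene of the table overlapped it. The second exon encodes the hinge, which differs most between IgG classes and is therefore shown for the 3 gamma genes that were well counted. Capitals mark bases that lie in no 12-base window found in the other heavy chain transcripts examined or in Ms4a1.
Ighg1 hinge exon, chr12:113329844-113329882, minus strand: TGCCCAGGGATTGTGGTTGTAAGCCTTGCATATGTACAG
Ighg2b hinge exon, chr12:113307261-113307326, minus strand: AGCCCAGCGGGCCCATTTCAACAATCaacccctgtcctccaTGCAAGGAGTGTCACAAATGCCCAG
Ighg3 hinge exon, chr12:113360529-113360576, minus strand: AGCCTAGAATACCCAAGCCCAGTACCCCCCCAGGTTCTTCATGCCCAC

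The gamma genes are copies of each other, so shared stretches could pass reads between them. The longest run of Ighg1 found exactly in both Ighg2b and Ighg3 had 59 bases and lay in exon 5, a coding exon of the membrane form. It is shown in capitals within that exon.
Ighg1 exon 5, chr12:113327442-113327572, minus strand: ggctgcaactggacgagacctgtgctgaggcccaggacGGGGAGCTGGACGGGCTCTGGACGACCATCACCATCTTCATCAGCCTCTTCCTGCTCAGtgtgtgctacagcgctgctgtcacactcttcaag
Of 2433 windows of 50 bases in the Ighg1 transcript, 10 (0.411%) occurred in another annotated transcript, all of them in Ighg2b and Ighg3. Among windows of 75 bases, the read length of the paired-end run, 0 of 2408 were shared. The Ighg1 count was a whole number in 11 of 22 samples, and fractions in the others came from reads that the authors divided among several places.

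Ms4a1 (ENSMUSG00000024673.9) lies on the minus strand of chromosome 19 at chr19:11249675-11266241 and was counted over 7 exons of 3075 bases. One other gene of the table overlapped its span but none of its exons. Of its windows of 50 bases, 0 of 3026 occurred in a transcript of another gene. Its short exon 4, which is coding, is shown in lower case throughout, and case marks nothing there. Shared stretches under 50 bases were not looked for in this exon.
Ms4a1 exon 4, chr19:11256573-11256632, minus strand: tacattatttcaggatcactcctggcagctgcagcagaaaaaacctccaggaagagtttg
All sequences are from GENCODE M21. The values are counts per gene without strand, so which exons the reads covered is not known here.

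Total counts per sample ran from 6468380 to 90713013 in the single-end run and from 22928936 to 43540806 in the paired-end run, and the lowest total belonged to Dicer SOM/SOM replicate 3. Dicer1 followed its labels. Its level in wild type was 996 to 1048 CPM (counts scaled to a common library size, with TMM factors) and 427 to 533 CPM in Dicer ΔMT/ΔMT. It was 41.5 to 54.4 CPM in Dicer SOM/SOM, 53.0 to 61.5 CPM in the RNAi and double mutants, and 513 to 760 CPM in the heterozygous controls. Piwil2, which encodes MILI, differed by 0.034 log2 units between double mutants and controls (SE 0.36, adjusted p = 0.964, edgeR), and its level does not check the DAH mutation. Of 12 oocyte genes listed, 12 were counted in every sample, and their summed level was 12170 to 15711 CPM across the groups, while 10 granulosa cell genes summed to 36.6 to 115 CPM.

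Ighg1 and Ms4a1 were counted in all 22 samples. The Ighg1 count was 75 to 6712 per sample and the Ms4a1 count was 188 to 4928. Per length, the mean Ighg1 level in wild type was 29.0 RPKM (CPM divided by the exon length in kilobases), above 89.4% of the 23172 genes tested in the single-end run. The mean Ms4a1 level was 15.7 RPKM, above 81.5% of them. In heterozygous controls of the paired-end run Ighg1 reached 20.7 RPKM and Ms4a1 17.3 RPKM, above 85.2% and 82.5% of 21019 tested genes. In these means Ighg1 stood above Ms4a1 per length in both runs, but not in every sample. In the heterozygous controls of 36 and 38 weeks Ms4a1 was the higher, at 15.24 and 16.51 RPKM against 15.19 and 13.31 RPKM.

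Most other genes of the B cell list were low, with Ighm, Btk and Pax5 as exceptions. Igkc, the kappa light chain constant region carried by most mouse antibodies, had 0 counts in all 22 samples, which allows at most 0.033 to 0.464 CPM in a single-end sample and 0.069 to 0.131 CPM in a paired-end sample for counting error only. Cd79a and Cd79b, the signalling pair of the B cell receptor, never exceeded 12 and 11.2 counts. Jchain, which links IgM and IgA, averaged 0.0286 CPM in the single-end run. Of 23 B cell genes listed, 21 passed 3 counts in some sample, yet per length Ighm at 42.5 RPKM and Btk at 16.1 RPKM were the only ones above 5 RPKM in the mean of the single-end samples. The summed level of the list was 140 to 147 CPM in wild type and 129 to 154 CPM in Dicer SOM/SOM. It was 132 to 143 CPM in heterozygous controls, 178 to 199 CPM in RNAi mutants and 165 to 221 CPM in double mutants. The sum was higher in all RNAi and double mutants than in the controls of that run, and Ighm and Btk made up most of it.

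**Figure D1:**
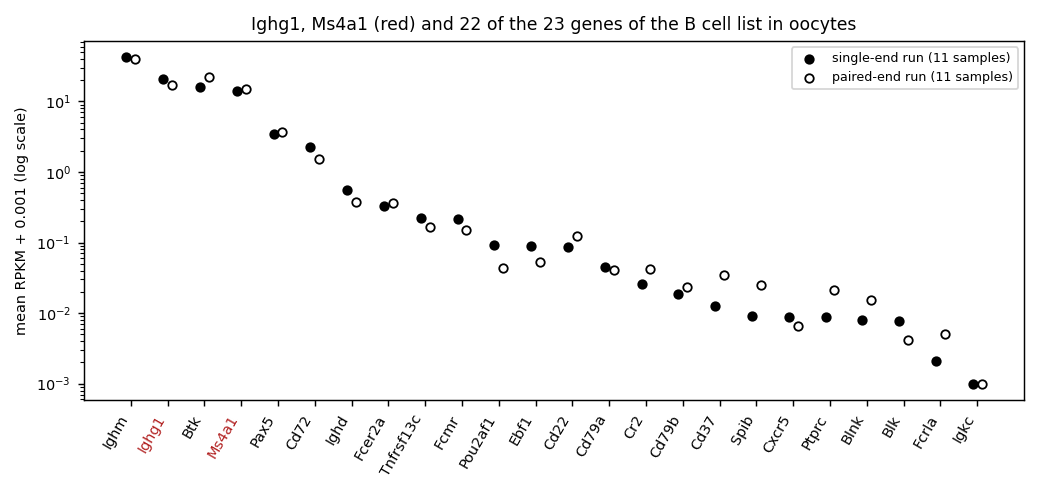
Mean level of Ighg1, Ms4a1 (names in red) and 22 of the 23 genes of the B cell list, in RPKM plus 0.001 on a log axis, for the 11 single-end samples (filled) and the 11 paired-end samples (open). Ighm, Ighg1, Btk and Ms4a1 stand at 14.0 to 42.5 RPKM in the single-end run, and Igkc is at 0.

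Counts on the heavy chain segments needed to build an antibody were also low. Of 113 V segments of the heavy chain locus on chromosome 12, 9 passed 3 counts in any sample, and the V segments together summed to 0.259 to 1.44 CPM per sample. None of 19 D segments did so, with a highest count of 3. Of 4 J segments, 1 did so, with a highest count of 5. The constant genes were counted far above them. Reads across joined segments were not looked for, so whether rearranged transcripts were present was not tested.

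Per length in wild type, Ighm was the highest of 8 heavy chain constant genes, at 43.9 ± 4.03 RPKM (SD, n = 3). Ighg1 followed at 29.0 ± 1.49 RPKM, Ighg2b at 20.04 ± 1.503 RPKM and Ighg3 at 14.1 ± 1.24 RPKM. The steps between these 4 genes were larger than the spread between samples. Ighg2c at 1.15 RPKM and Ighd at 0.759 RPKM were low, Igha never exceeded 9.25 counts in any sample and Ighe never exceeded 1 count.

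In wild type the Ighg1 level was 72.4, 68.2 and 75.5 CPM. The single Dicer ΔMT/WT sample had 78.9 CPM. In Dicer ΔMT/ΔMT it was 55.4, 54.2, 59.3 and 56.0 CPM, so that all 4 samples lay below all 3 wild-type samples. The group means were 72.1 ± 3.70 CPM (SD, n = 3) and 56.2 ± 2.18 CPM (SD, n = 4). The log2 fold change was -0.36 (SE 0.30), and the quasi-likelihood F test of edgeR gave an adjusted p of 0.468 (Benjamini-Hochberg, over all tested genes). When only these groups were fitted, without the widely spread Dicer SOM/SOM samples, the change was -0.35 (SE 0.065) with an adjusted p of 0.00454, so the call depended on the samples in the fit. An exact two-sided permutation test gave p = 0.0571, the smallest it can give here. Over all tested genes, 7.35% were called lower and 8.08% higher in this comparison, which shares its wild-type samples with the one the genes were chosen on.

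In Dicer SOM/SOM the Ighg1 level was 10.2 CPM in replicate 1, 31.8 CPM in replicate 2 and 10.8 CPM in replicate 3. None of these overlapped the wild-type or Dicer ΔMT/ΔMT values. Replicates 1 and 3 stood at 14.6% of the wild-type mean on average and replicate 2 at 44.2%. The fitted log2 difference was -1.97 (SE 0.34) from wild type and -1.61 (SE 0.33) from Dicer ΔMT/ΔMT. Without replicate 2 these became -2.79 and -2.43. Over all tested genes, 14.2% were called lower and 14.5% higher against wild type, and 3.31% lower and 4% higher against Dicer ΔMT/ΔMT. Nothing is read from these shares, because the genes were chosen on this group.

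**Figure D2:**
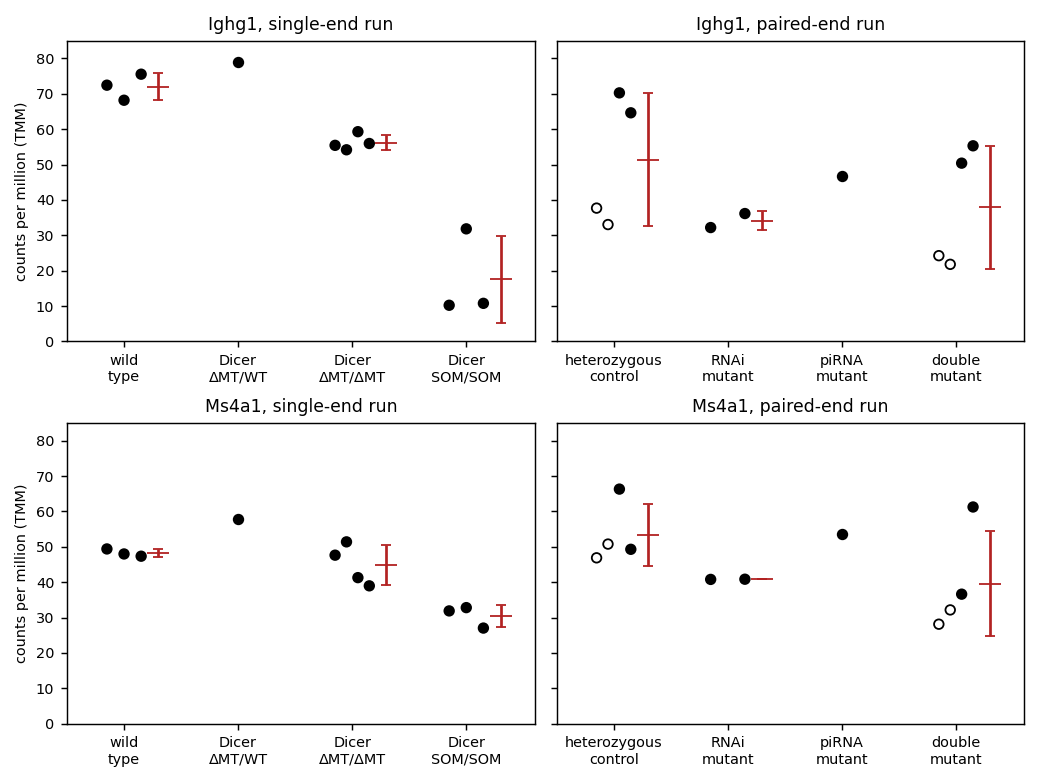
Level of Ighg1 (top) and Ms4a1 (bottom) in CPM in each sample of the single-end run (left) and the paired-end run (right), with group mean and SD in red where a group has more than 1 sample. Open points are animals over 30 weeks old. Ighg1 is at 10.2 to 31.8 CPM in Dicer SOM/SOM and at 21.8 to 37.7 CPM in the older animals of the paired-end run.

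The split among the Dicer SOM/SOM samples was sharper in the neighbours of Ighg1. Ighg2b, whose nearest end lies 17307 bases from Ighg1, had 0.572, 21.99 and 0.862 CPM in replicates 1, 2 and 3, against 48.0 to 55.6 CPM in wild type and 58.3 to 72.8 CPM in Dicer ΔMT/ΔMT. Ighg3, 25701 bases away on the other side, had 0.306, 11.4 and 0 CPM, against 30.7 to 36.5 CPM in wild type and 27.1 to 32.7 CPM in Dicer ΔMT/ΔMT. In replicates 1 and 3 these genes averaged 1.39% and 0.452% of the wild-type mean. Ighg1 in the same libraries kept 500.5 and 75 counts, where Ighg2b had 28 and 6. Ighg2c, 36308 bases from Ighg1 beyond Ighg2b, was split too but far less counted. It had 0.0817, 1.79 and 0 CPM in replicates 1, 2 and 3, against 1.14 to 1.71 CPM in wild type.

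Farther along the locus on the Ighg3 side, Gm9134 and Ighm did not follow this split. Ighd, which lies between them, had 0.123, 0.280 and 1.01 CPM in replicates 1, 2 and 3. These were 6, 18 and 7 counts, against 1.12 to 1.76 CPM in wild type. The processed pseudogene Gm9134, 50488 bases from Ighg1, was at 11.1, 12.8 and 12.2 CPM in the Dicer SOM/SOM samples and at 13.9 to 15.2 CPM in wild type. Gm9134 had only 1.42 to 2.09 CPM in the paired-end run. Most of its counts were fractional, so its reads may not all come from this locus. Ighm was at 39.6, 54.6 and 68.8 CPM in replicates 1, 2 and 3, against 66.7 to 78.9 CPM in wild type. Replicate 3 of Dicer SOM/SOM thus had Ighg3 at 0 and Ighm within the wild-type range. The split was looked for over all genes after it was seen at these genes. Of 10520 genes with at least 5 CPM in replicate 2, 8 were at least 5 times lower in both replicate 1 and replicate 3, of which 2, Ighg2b and Ighg3, were on chromosome 12 and 3, March11, Rims2 and Lrp12, on chromosome 15. The other 3 were on chromosomes 3, 6 and X.

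**Figure D3:**
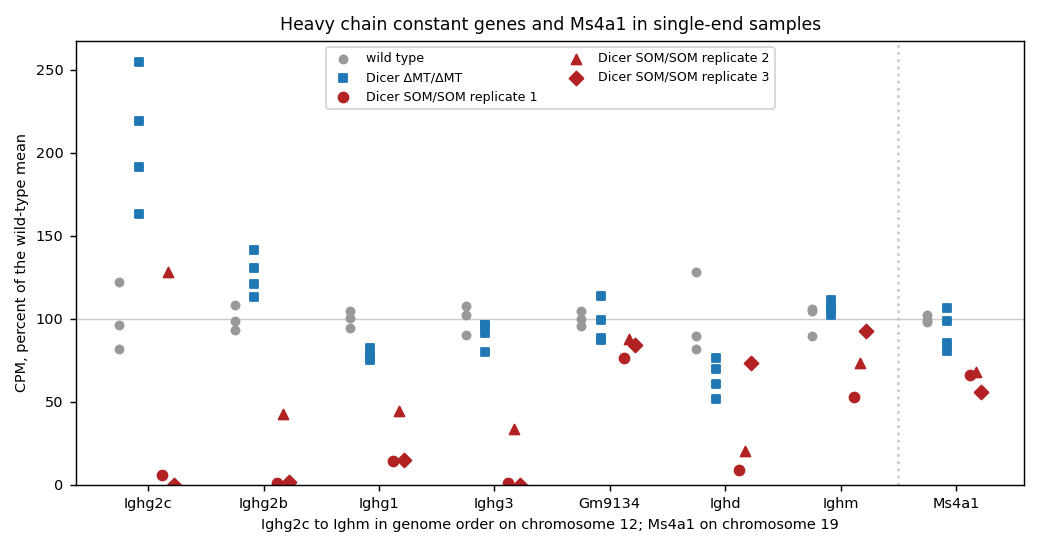
Level of the counted heavy chain constant genes and Gm9134 in genome order, and of Ms4a1, as a percent of the wild-type mean in each single-end sample. In Dicer SOM/SOM replicates 1 and 3 Ighg2b and Ighg3 lie at or near 0 and Ighg1 near 14.6%, while Gm9134 and Ighm lie at 53.1% to 92.3% in all 3 replicates. Ighg2c lies at 5.85%, 128% and 0% and Ighd at 8.94%, 20.4% and 73.4% in replicates 1, 2 and 3, both from low counts.

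Dicer1 and Ighg1 lie on the same chromosome, 8.57 Mb apart. An effect of the SOM allele and a difference of flanking chromosome 12 that came with the allele from the stem cells cannot be told apart in this group. Of 107 tested genes between Dicer1 and Ighg1, 13 were called higher and 13 lower in Dicer SOM/SOM against wild type, where 14.5% of all tested genes were higher and 14.2% lower, with a median log2 difference of -0.019 against 0.017 for all tested genes. Within 1 Mb of Ighg1, 29 other genes were tested in the same comparison. Of these, 2 were called higher and 7 lower, with a median of -0.21. The 7 include Ighd, Ighg2b, Ighg3 and Ighm. The library values moved too. Gm42418, a gene that covers ribosomal RNA, was at 12710, 4756 and 17267 CPM in Dicer SOM/SOM replicates 1, 2 and 3 and at 5205 to 5776 CPM in wild type, and its part in the Ighg1 levels was not tested.

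In the paired-end run all 4 gamma genes were counted in every Dicer SOM/SOM sample. Ighg2b was at 20.1 to 44.4 CPM and Ighg3 at 8.06 to 28.2 CPM in the 4 double mutants. In the RNAi mutants Ighg2b was at 24.0 and 25.9 CPM and Ighg3 at 11.7 CPM in both. These values lay within the range of the heterozygous controls, which was 13.9 to 42.9 CPM for Ighg2b, except that 2 double mutants at 44.4 CPM exceeded it. No sample of this run had Ighg2b or Ighg3 near 0.

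The ages used here are those of the labels, which reach beyond the range that the study's methods give for oocyte donors in general. In the heterozygous controls the Ighg1 level was 37.7 CPM at 36 weeks, 33.0 CPM at 38 weeks, 70.3 CPM at 10 weeks and 64.6 CPM at 17 weeks. In the RNAi mutants it was 32.2 CPM at 17 weeks and 36.2 CPM at 13 weeks. The older controls and the young RNAi mutants thus overlapped. The single piRNA mutant, aged 16 weeks, had 46.7 CPM. In the double mutants it was 24.3 CPM at 40 weeks, 21.8 CPM at 35 weeks, and 50.4 and 55.3 CPM at 11 weeks. In both genotypes with older animals, the older samples lay below the young ones without overlap.

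Tested by genotype only, Ighg1 did not pass the threshold in any comparison of this run. RNAi mutants differed from heterozygous controls by a log2 fold change of -0.59 (SE 0.39, adjusted p = 0.411, edgeR), with 3.8% of all tested genes called lower and 6.98% higher. The exact permutation test gave p = 0.267, where 0.133 is the smallest possible. Double mutants differed from controls by -0.44 (SE 0.31, adjusted p = 0.366), with 8.85% of genes called lower and 12.4% higher, and the exact permutation test gave p = 0.314, where 0.0286 is the smallest possible. Double mutants differed from RNAi mutants by 0.15 (SE 0.38, adjusted p = 1), with 0.00476% of genes called lower and 0.328% higher.

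With age over 30 weeks as a covariate, Ighg1 was lower in RNAi mutants by -1.05 log2 units (SE 0.17, adjusted p = 0.00196, edgeR) and in double mutants by -0.49 (SE 0.13, adjusted p = 0.0145). Among animals of at most 17 weeks the RNAi mutants stood at 50.7% and the double mutants at 78.4% of the controls' mean, with adjusted p = 0.0143 and 0.314. The single piRNA mutant stood at 69.2%. The direction was the same with and without age in the fit, and the calls were not.

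The comparison of ages was added after these values had been seen. Ighg1 was lower in animals over 30 weeks than in those of at most 17 weeks by -1.06 log2 units (SE 0.13, adjusted p = 0.0359, edgeR with genotype in the fit). It was called as 1 of 2 genes among 21019 tested (0.00952% lower, 0% higher), the other being Gm43678, and 1423 genes had an unadjusted p under 0.05. DESeq2 called 63 genes. In 7 of 8 fits that each left out 1 control or double mutant, the adjusted p rose above the threshold, up to 0.183, while the change stayed between -1.12 and -1.01. The older double mutants averaged 43.6% of the young ones and the older controls 52.4%. An exact permutation of ages within genotype gave p = 0.0556, the smallest that 36 assignments allow. The log2 difference between the genotypes' age effects was -0.27 (SE 0.27, adjusted p = 0.999, edgeR).

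Libraries of this run also fell into sets by Gm42418, with 6 above 1000 CPM and 5 below. Each set held 1 older and 1 young library of both genotypes. Within the sets, the older library held 48.1% and 39.4% of the young library's Ighg1 level in double mutants and 58.3% and 47.0% in controls. Each of these ratios compares 1 library with 1 other, and the part of the library sets in the Ighg1 levels was not tested.

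**Figure D4:**
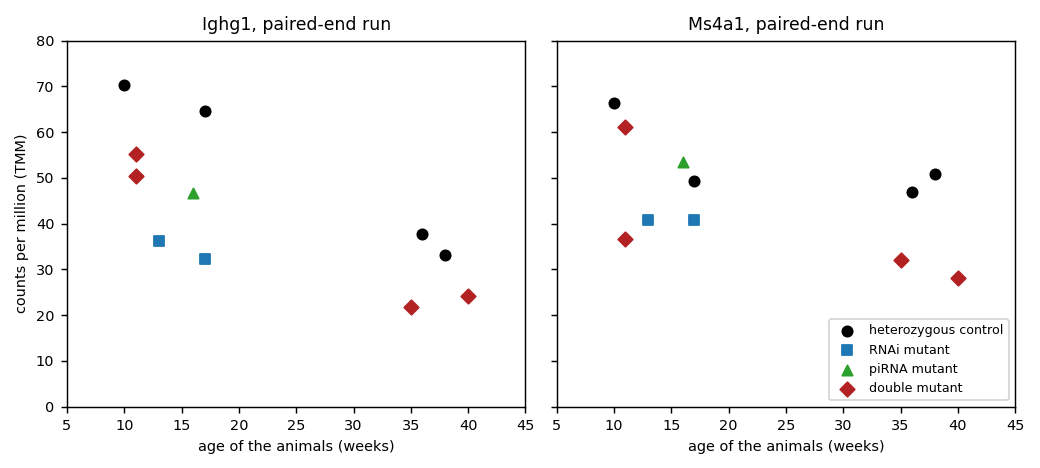
Level of Ighg1 (left) and Ms4a1 (right) in CPM against the age of the animals in weeks, for the 11 paired-end samples by genotype. The 4 samples over 30 weeks have Ighg1 at 21.8 to 37.7 CPM, and the 4 young controls and double mutants at 50.4 to 70.3 CPM.

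No other constant gene passed the test for age with edgeR, and DESeq2 called 2 constant genes in all. Ighg2b differed by -0.93 (SE 0.19, adjusted p = 0.295) and Ighg3 by -0.95 (SE 0.32, adjusted p = 0.668), while Ighm differed by -0.33 (SE 0.16, adjusted p = 0.752) and Ighd by 0.63 (SE 0.49, adjusted p = 0.854). In genotype comparisons, Ighm rose in double mutants against controls, by 0.59 (SE 0.18, adjusted p = 0.0341). Ighg2c rose there too, by 2.66 (SE 0.54, adjusted p = 0.00278), from 2.25 to 17 counts per control sample to 43.5 to 80.5 counts per double mutant sample. Of 6 tested constant genes these were the 2 called, where 12.4% of all tested genes were higher. In RNAi mutants (6.98% of all genes higher, 3.8% lower) and in Dicer ΔMT/ΔMT (8.08% higher, 7.35% lower) 0 of 6 were called.

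Ms4a1 was lower in Dicer SOM/SOM than in the other single-end samples and passed the threshold in none of the genotype comparisons in which it was tested with all libraries. Its level in wild type was 49.4, 48.0 and 47.3 CPM. In the Dicer ΔMT/WT sample it was 57.9 CPM. In Dicer ΔMT/ΔMT it was 47.6, 51.4, 41.3 and 39.0 CPM, overlapping wild type. The log2 fold change was -0.11 (SE 0.11, adjusted p = 0.554, edgeR), and the exact permutation test gave p = 0.457. In Dicer SOM/SOM it was 31.9, 32.8 and 27.0 CPM, below every other single-end sample. The log2 difference was -0.64 (SE 0.12) from wild type and -0.53 (SE 0.11) from Dicer ΔMT/ΔMT. Over all tested genes, 14.2% were called lower and 14.5% higher against wild type, and 3.31% lower and 4% higher against Dicer ΔMT/ΔMT. Nothing is read from this separation, because the genes were chosen on this group. The 3 Dicer SOM/SOM samples lay close together for Ms4a1, at 56.0% to 68.0% of the wild-type mean, where Ighg1 was split.

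In the heterozygous controls Ms4a1 was at 46.9 and 50.8 CPM in the older animals and 66.3 and 49.3 CPM in the young ones. The RNAi mutants had 40.8 CPM in both samples, below all controls. Both were libraries with Gm42418 above 1000 CPM, at 4929 and 4652 CPM. The piRNA mutant had 53.6 CPM. The double mutants had 28.1 and 32.2 CPM in older and 36.6 and 61.2 CPM in young animals, so that the highest double mutant exceeded 3 of the 4 controls. In controls and double mutants of either age, the library above 1000 CPM of Gm42418 had less Ms4a1 than the one below. The double mutant at 61.2 CPM was in the set below. The part of the library sets in the Ms4a1 levels was not tested. The log2 fold change was -0.39 (SE 0.27, adjusted p = 0.429, edgeR) for RNAi mutants and -0.43 (SE 0.21, adjusted p = 0.180) for double mutants against controls. The exact permutation tests gave p = 0.133, the smallest possible, and p = 0.114. Without double mutant replicate 4, the young sample at 61.2 CPM, the second difference was -0.72 with an adjusted p of 0.00603, so that this library decided the call. Double and RNAi mutants differed by -0.047 (SE 0.26, adjusted p = 1), and the age difference was -0.47 (SE 0.18, adjusted p = 0.685).

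Per length, Ms4a1 was the highest gene of its family in these oocytes, at a mean of 14.0 RPKM in the single-end run. Of 19 family members in the table, 14 passed 3 counts in some sample, and 3 were at 0 throughout (Ms4a4b, Ms4a4c and Ms4a5). Ms4a6d averaged 1.65 RPKM and Ms4a10 1.07 RPKM in that run, and each of the others was at or under 0.222 RPKM. Of 7 tested members 0 passed the threshold in Dicer ΔMT/ΔMT, RNAi mutants or double mutants. The tested neighbours of Ms4a1 in the genome were 1700025F22Rik at 0.099 CPM, Gm6501 at 1.43 CPM, Gm5511 at 50.3 CPM and Ms4a6d at 2.88 CPM in wild type. Gm5511 had 2.68 to 3.98 CPM as group means of the groups with several samples in the paired-end run, far below its single-end level. Within 1 Mb of Ms4a1, 50 genes were tested in the single-end run, and 12 were called lower and 1 higher in Dicer SOM/SOM against wild type (14.2% and 14.5% of all tested genes), with a median log2 difference of -0.26. In Dicer ΔMT/ΔMT 5 of them were lower and 0 higher (7.35% and 8.08% of all tested genes), with a median of -0.13 against 0.0076 over all tested genes. In RNAi mutants 1 of 47 was lower and 0 higher (3.8% and 6.98% of all tested genes), with a median of -0.28. In double mutants 5 of 47 were lower and 1 higher (8.85% and 12.4% of all tested genes), with a median of -0.25 against -0.0025 over all tested genes.

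Among the B cell and light chain genes that were counted well, calls went in both directions. Btk, a kinase downstream of the B cell receptor, rose in Dicer ΔMT/ΔMT by 0.74 (SE 0.15, adjusted p = 0.00652, edgeR), in RNAi mutants by 1.24 (SE 0.19, adjusted p = 6.2e-04) and in double mutants by 1.13 (SE 0.16, adjusted p = 1.9e-04). Pax5, the transcription factor of B cell identity, fell by 0.89 on the log2 scale in double mutants (SE 0.22, adjusted p = 0.0102). Of the light chain genes, Iglc3 fell by 1.21 in Dicer ΔMT/ΔMT (SE 0.10, adjusted p = 3.9e-05), by 1.498 in RNAi mutants (SE 0.32, adjusted p = 0.00756) and by 1.48 in double mutants (SE 0.25, adjusted p = 7.0e-04). In all, the B cell list had 2 genes higher and 0 lower of 13 tested in Dicer ΔMT/ΔMT, 1 higher and 1 lower of 14 in RNAi mutants, and 3 higher and 1 lower of 14 in double mutants. Over all tested genes the shares called higher and lower were 8.08% and 7.35%, 6.98% and 3.8%, and 12.4% and 8.85% in these comparisons.

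Plasma cells, the antibody-secreting form of B cells, also express Sdc1, Prdm1 and Derl3, and these were the abundant genes of that list, at 30.7, 14.7 and 50.6 RPKM in the single-end run. Prdm1, a transcriptional repressor that also acts in germ cells, fell by 0.71 on the log2 scale in Dicer ΔMT/ΔMT (SE 0.09, adjusted p = 4.1e-04). It was the 1 call among 5 tested genes, where 7.35% of all tested genes were lower and 8.08% higher. None of 4 passed in RNAi mutants (3.8% of all tested genes lower, 6.98% higher) or double mutants (8.85% lower, 12.4% higher). Xbp1, the factor that prepares plasma cells for secretion, averaged 0.950 CPM, and Irf4 0.119 CPM.

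The list of class switching genes held DNA repair genes that were well counted. Of these, Ung, Msh6 and Xrcc5 averaged 68.4, 43.7 and 52.8 RPKM in the single-end run. Trp53bp1, which holds broken ends for joining, fell by 0.51 in Dicer ΔMT/ΔMT (SE 0.14, adjusted p = 0.0316), by 0.73 in RNAi mutants (SE 0.14, adjusted p = 0.00327) and by 0.96 in double mutants (SE 0.11, adjusted p = 3.0e-05). Il4ra, a receptor subunit for interleukin 4, which steers switching to IgG1, averaged 1.29 CPM in the single-end run and fell by 3.03 in RNAi mutants (SE 0.45, adjusted p = 5.3e-04). Of 11 tested genes of this list these 2 were called lower in RNAi mutants and in double mutants, where 3.8% and 8.85% of all tested genes were lower. Of 6 listed receptors for IgG, 3 were tested in the single-end run and 4 in the paired-end run. Fcgr1 was the 1 called, rising by 1.17 in Dicer ΔMT/ΔMT (SE 0.30, adjusted p = 0.0250) and by 1.97 in RNAi mutants (SE 0.50, adjusted p = 0.0197), at a mean of 0.969 CPM in the single-end run. Over all tested genes, 8.08% and 6.98% were called higher in these comparisons.

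Of 10 T cell genes listed, Cd4, Cd5 and Cd8a were the highest, at means of 19.2, 1.82 and 0.261 CPM in the single-end run. Cd4, a co-receptor of helper T cells, and Cd5, a surface receptor of T cells and some B cells, were counted in all 22 samples. The CD3 genes Cd3d, Cd3e and Cd3g averaged 0.00344, 0.132 and 0 CPM in that run. Cd5 fell by 0.83 on the log2 scale in Dicer ΔMT/ΔMT (SE 0.18, adjusted p = 0.0113, edgeR) and by 1.503 in double mutants (SE 0.41, adjusted p = 0.0178). In Dicer SOM/SOM against wild type Cd4 fell by 0.92 (SE 0.15, adjusted p = 9.5e-04) and Cd5 by 1.29 (SE 0.21, adjusted p = 0.0012). Over all tested genes 14.2% were called lower there, 7.35% in Dicer ΔMT/ΔMT and 8.85% in double mutants. Cd4 was not called in Dicer ΔMT/ΔMT, at -0.38 (adjusted p = 0.0769, edgeR). In the paired-end run it was not called either, at -0.80 in RNAi mutants (adjusted p = 0.107) and -0.11 in double mutants (adjusted p = 0.792). Cd5 was not called in RNAi mutants, at -1.38 (adjusted p = 0.123). Of 6 erythrocyte genes listed, Alas2, an enzyme of heme synthesis, averaged 0.998 CPM in the single-end run, and each of the others was at or under 0.00441 CPM. The macrophage list summed to 21.3 to 29.2 CPM in wild type, 64.0 to 74.4 CPM in Dicer ΔMT/ΔMT and 133 to 194 CPM in Dicer SOM/SOM. Of its genes, C1qb averaged 62.2 RPKM, whereas C1qa and C1qc, encoding its partner chains, averaged 0.0184 and 0.0708 RPKM. In the paired-end run the list summed to 19.4 to 25.7 CPM in heterozygous controls, 84.6 to 88.5 CPM in RNAi mutants and 79.9 to 136 CPM in double mutants. C1qb rose in Dicer ΔMT/ΔMT by 1.53 (SE 0.14, adjusted p = 5.9e-05, edgeR). It rose in RNAi mutants by 2.08 (SE 0.22, adjusted p = 3.1e-05) and in double mutants by 2.31 (SE 0.20, adjusted p = 2.3e-06). Csf1r was not called in them, at -0.11, -0.089 and 0.26. Of 6 tested genes of the list, 2, 3 and 3 were called higher and 0 lower. Over all tested genes 8.08%, 6.98% and 12.4% were higher. With age C1qb differed by -0.045 (SE 0.19, adjusted p = 0.981, edgeR). In the single-end run the list's sum was higher in the groups where Ighg1 was lower, and its part in the Ighg1 levels was not tested.

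The genes most like each member were ranked by the smaller of the Pearson correlations of log2 CPM over the 11 samples of each run, among 14174 genes. Each library's depth and scaling enter the values of both genes of a pair, and so do differences between genotypes. The single-end values also include the Dicer SOM/SOM samples on which the members were chosen, so all these correlations are descriptions. For Ighg1 the closest were Msantd4 (0.85), Zfp759 (0.84), Ppp3ca (0.82), Frk (0.82) and Naa16 (0.82). For Ms4a1 they were Zdhhc20 (0.92), AA545190 (0.91), Cfl2 (0.90), Mospd1 (0.89) and Haus3 (0.89). The members correlated with each other at 0.88 in the single-end run and 0.78 in the paired-end run. Ighg1 and Ighg2b correlated at 0.96 in the single-end run and 0.49 in the paired-end run, so that its nearest neighbour was less alike there than Ms4a1 on another chromosome.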

How the data were processed

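RNA was amplified with the Ovation V2 kit and sequenced as single-end 50-base or paired-end 75-base reads. The authors aligned reads with STAR 2.5.3a to mm10, keeping reads that map to many places, and counted them with featureCounts over GENCODE M15 exons without strand, each multiply placed read being split into fractions. The deposited values are thus estimated counts (expected counts), here rounded. Samples were grouped by genotype label and the runs were fitted apart with edgeR 4.0.16 (TMM, quasi-likelihood F test, filterByExpr at 10 counts and 15 in total, Benjamini-Hochberg adjustment over all tested genes, threshold 0.05). The fit held no Dicer ΔMT/WT library, there being 1, and took the lone piRNA mutant as a group of its own. Exact two-sided permutation tests used log2 CPM with a prior count of 2. Members, lists and tests were chosen with earlier results of these data known. The naming rule covered the members, counted heavy chain and Ms4a genes, the 3 highest genes of each other list and its called genes up to 5, the 2 nearest tested genes on each side, the 5 most alike genes, Dicer1 and Piwil2. Other named list genes (Igkc, Cd79a, Cd79b, Jchain, Xbp1, Irf4, Cd3d, Cd3e, Cd3g, C1qa, C1qc) and Gm42418 were chosen after their values were seen. Oocyte, granulosa and erythrocyte genes and some others under the rule are given as sums or counts, or not reported here. DESeq2 1.42.0, other scaling, no filter, fewer groups, age, replicate number and left-out samples were alternatives. Tests were tried on simulated counts first.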

Additional observations from a re-analysis of the deposited data

How the results depend on the processing

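Of 176 alternative values of the members, 152 kept their direction and their side of the threshold or stayed within the spread. Ighg1 in Dicer ΔMT/ΔMT passed at -0.35 when only the compared groups were fitted. Ighg1 against heterozygous controls passed in RNAi mutants at -1.05 with age as a covariate and -0.97 in animals of at most 17 weeks, and in double mutants at -0.49 with age. With the number in the sample title as a replicate block it passed at -1.10 in RNAi mutants and -0.52 in double mutants. With that block Ms4a1 in double against RNAi mutants turned to 0.15. In the paired-end run the older animals had title numbers that no young animal shared. The block thus also separated the ages and was not independent of the age covariate. The numbers did not pair the samples, since deviations of same-numbered samples correlated at -0.071 to 0.18. That Ms4a1 difference also turned to 0.15 with age and 0.26 in young animals, and ran from -0.34 to 0.081 when 1 sample was left out, against -0.089 to 0.34 for Ighg1. In double mutants against controls, leaving out 1 sample gave -0.72 to -0.29 for Ms4a1. In Dicer SOM/SOM, leaving out 1 sample gave Ighg1 differences of -2.79 to -1.64 from wild type and -2.43 to -1.28 from Dicer ΔMT/ΔMT. The age difference of Ighg1 lost its call in the genotypes with both ages, at -1.07, and ran from -1.12 to -1.01 when 1 sample was left out. The causes were not tested. Genes called by age numbered 2, but 63 with DESeq2, 184 without the filter and 0 in the genotypes with both ages. Calls between Dicer SOM/SOM and Dicer ΔMT/ΔMT rose from 1696 to 2765 with DESeq2. RNAi mutant calls fell from 2266 to 1248 with the replicate block and 1349 in young animals, where double mutant calls fell from 4472 to 1939. Double against RNAi mutant calls rose from 70 to 171 with DESeq2 and 147 without the filter. With 2 RNAi mutants and 1 piRNA mutant, small differences between mutants could not be resolved.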
